A study of Mus musculus with 16 samples.

Results

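P2ry14 and 9 related genes of purine signalling were read from the authors' deposited tables of 2 blood progenitor populations. The 10 genes are P2ry1, P2ry2, P2ry6, P2ry12, P2ry13, P2ry14, Gpr171, P2rx4, P2rx7 and Adora2b, found by symbol among the 23420 rows of each table, and all 10 had a row in both. They were chosen by receptor family around P2ry14, which was itself selected on its decrease in these same comparisons. Their changes between genotypes are therefore given as a description and not as a test.

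RNA was measured in bone marrow cells of 40 week old mice. Multipotent progenitors (MPP, early cells that still form several blood lineages) were sorted as Lin-cKit+Sca1+CD48+CD150- cells. Granulocyte-monocyte progenitors (GMP, later cells of the myeloid line) were sorted as Lin-cKit+Sca1-CD150-CD16/32+ cells. In each population 4 libraries labelled WT, with the genotype Tet2fl/fl, were set against 4 labelled Tet2KO, with the genotype Tet2-/-, and each library came from 1 mouse. The floxed allele is thus carried by the controls. How and in which cells the allele was deleted is not given in the sources used here. By the mouse labels, 3 mice of each genotype gave both populations. The remaining WT library of each population carries a different but similar mouse label, and whether both came from 1 mouse is not given in the sources used here. Tet2 itself had a log2 fold change of 0.44 (SE 0.0992 and adjusted p = 0.00551) in MPP and of 0.35 (SE 0.0748 and adjusted p = 0.000409) in GMP in the authors' deposited tables, higher in the libraries labelled Tet2KO. A value per gene does not show whether the deleted part is missing, so Tet2 does not check the labels, and Tet2KO below means the libraries labelled so.

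Cells release ATP, ADP, UTP, UDP and nucleotide sugars such as UDP-glucose, and enzymes on the cell surface degrade the nucleotides stepwise to adenosine. P2Y receptors are G protein-coupled receptors for these nucleotides, P2X receptors are cation channels opened by ATP, and P1 receptors such as the product of Adora2b bind adenosine. P2Y14, the receptor for UDP-glucose and related UDP-sugars, couples to inhibitory G proteins and is known from blood stem and progenitor cells. TET2 oxidizes 5-methylcytosine, which in mammals lies mostly in CpG dinucleotides.

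Of the 10 genes, 5 lie on chromosome 3, and 4 of these form a cluster inside another gene. By the GENCODE annotation of mm10, Med12l, which encodes a relative of the Mediator subunit MED12, spans chr3:59005825-59318682 on the plus strand. Within that span, on the minus strand, lie Gpr171 (chr3:59096448-59101821), P2ry14 (chr3:59113855-59153618), P2ry13 (chr3:59207892-59210882) and P2ry12 (chr3:59216272-59262871). The exons of Gpr171, P2ry14 and P2ry13 shared 0 bases with exons of Med12l, so that these exons lie in its introns, and those of P2ry12 shared 9 bases. Igsf10, at the far end, shared 1948 exonic bases with Med12l on the opposite strand. P2ry1 (chr3:61002795-61008982, plus strand) lies 1740 kb beyond P2ry12. The other members include 2 neighbouring pairs, P2rx7 (chr5:122643911-122691432) and P2rx4 (chr5:122707544-122729738), 16.1 kb apart on the plus strand, and P2ry6 (chr7:100937630-100974649) and P2ry2 (chr7:100996568-101012866), 21.9 kb apart on the minus strand. Adora2b lies at chr11:62248984-62266453 on the plus strand.

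Promoter windows were read from RefSeq (build GRCm38.p6, the assembly of mm10) as 300 bases, of which 250 lie before an annotated start and 50 after it. They are shown because P2ry14 and Med12l were the cluster genes called in opposite directions in GMP, while Med12l was not called in MPP. CpG is also the dinucleotide in which TET2's substrate mostly lies. Methylation is not among the values used here, and a link of CpG content to these changes was not tested. P2ry14 has 4 annotated starts, and the farthest upstream and the one with fewest CpG are printed, with P2ry13 and P2ry12 as neighbours in the cluster and Med12l as their host. Capitals mark each CpG, and each run reads 5′ to 3′ on the strand of its gene.
P2ry14, upstream start, chr3:59153443-59153742, minus strand: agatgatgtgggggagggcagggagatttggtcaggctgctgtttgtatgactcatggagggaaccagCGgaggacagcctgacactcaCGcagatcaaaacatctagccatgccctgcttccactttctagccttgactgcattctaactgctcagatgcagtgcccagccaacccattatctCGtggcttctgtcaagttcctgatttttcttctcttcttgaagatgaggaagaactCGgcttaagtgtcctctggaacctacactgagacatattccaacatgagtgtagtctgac
P2ry14, internal start, chr3:59131279-59131578, minus strand: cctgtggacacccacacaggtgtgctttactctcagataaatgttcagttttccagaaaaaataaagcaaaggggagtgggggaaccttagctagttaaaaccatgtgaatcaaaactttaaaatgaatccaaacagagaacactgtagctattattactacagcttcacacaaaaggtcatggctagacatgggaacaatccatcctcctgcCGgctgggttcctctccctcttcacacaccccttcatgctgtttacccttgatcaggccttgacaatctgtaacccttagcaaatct
P2ry13, chr3:59210833-59211132, minus strand: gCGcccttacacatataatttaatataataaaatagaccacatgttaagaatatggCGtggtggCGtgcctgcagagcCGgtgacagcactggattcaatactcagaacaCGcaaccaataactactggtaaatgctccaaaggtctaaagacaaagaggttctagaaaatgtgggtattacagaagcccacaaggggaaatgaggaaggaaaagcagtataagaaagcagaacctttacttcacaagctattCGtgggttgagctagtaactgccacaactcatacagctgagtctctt
P2ry12, chr3:59262936-59263235, minus strand: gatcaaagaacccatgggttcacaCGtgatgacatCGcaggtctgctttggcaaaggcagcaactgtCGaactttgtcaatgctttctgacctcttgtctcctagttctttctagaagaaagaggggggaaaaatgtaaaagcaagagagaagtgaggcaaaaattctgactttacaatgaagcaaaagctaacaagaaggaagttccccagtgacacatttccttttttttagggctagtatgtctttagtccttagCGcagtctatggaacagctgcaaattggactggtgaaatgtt
Med12l, chr3:59006728-59007027, plus strand: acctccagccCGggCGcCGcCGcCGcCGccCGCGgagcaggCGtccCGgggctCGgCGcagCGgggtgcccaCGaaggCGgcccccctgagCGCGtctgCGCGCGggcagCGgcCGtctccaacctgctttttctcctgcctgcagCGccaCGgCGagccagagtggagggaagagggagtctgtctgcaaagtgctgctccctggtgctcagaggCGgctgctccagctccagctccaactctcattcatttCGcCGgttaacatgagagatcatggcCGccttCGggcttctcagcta

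The 4 P2ry14 windows held 4, 1, 4 and 3 CpG, where the median of all 32851 RefSeq windows was 7 and the middle range 3 to 20. Of all windows, 62.0% held more than the P2ry14 windows with 4, 68.6% more than that with 3 and 85.9% more than the printed internal one. The windows with 4 and 3 thus lie within the middle range, below the median. P2ry12 had 4 and P2ry13 had 6, while the Med12l window held 30, more than 88.3% of all windows. Away from the cluster, P2ry1 (25), Adora2b (27) and the 2 windows of P2ry2 (28 and 30) were rich in CpG, P2rx4 had 18, and P2rx7 had 8 and 4. Of the members, 8 had a window, which leaves out Gpr171 and P2ry6.

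**Figure D1:**
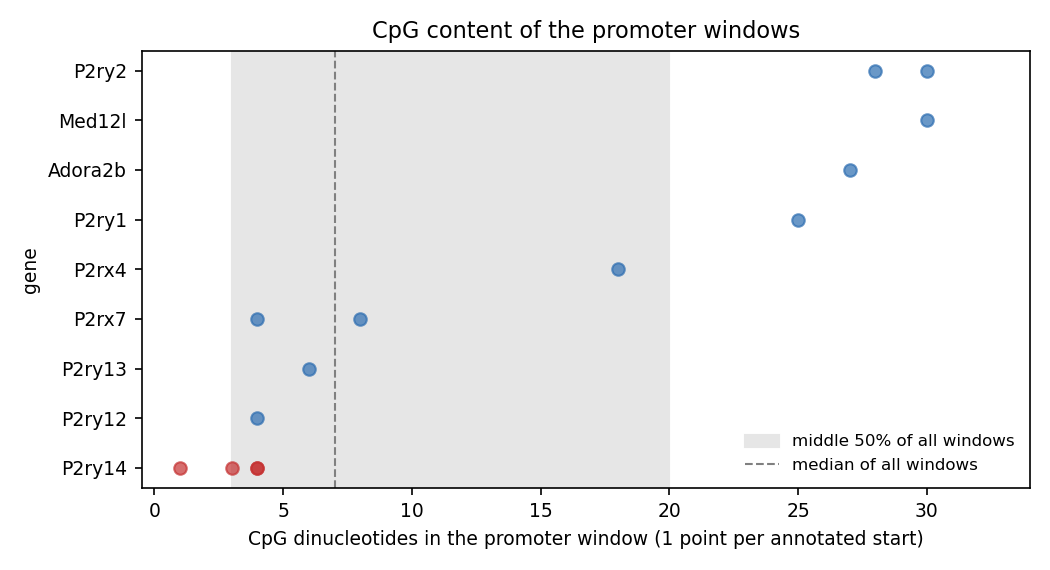
CpG dinucleotides (x axis) in each 300 base promoter window of the named genes (y axis), 1 point per annotated start, with P2ry14 in red. The grey band is the middle range of all windows (3 to 20) and the dashed line their median of 7; the P2ry14 points lie at 1 to 4 and the Med12l point at 30.

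The windows were also searched on both strands for short motifs. The E-box CANNTG, of which CACGTG is one form, was in 2 of the 4 P2ry14 windows, both printed, and in 72.3% of all windows. CACGTG itself was in the P2ry12 window and both P2ry2 windows, in none of the 4 of P2ry14, and in 7.15% of all windows. GATAAG (7.44% of all windows) was in no window of a member, TGTGGT (16.8%) was in that of P2ry13, and GGAAGT (23.8%) was in 1 of the 4 P2ry14 windows and in those of P2ry12, P2rx7 and Adora2b. A match is a run of letters and not a measured binding site.

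P2ry14 was lower in Tet2KO in both populations. In MPP its mean over all libraries was 389 normalized counts, and its log2 fold change was -0.78 (SE 0.163), a level of 0.584 of that in WT, in the authors' deposited table. In GMP its mean was 157 normalized counts, and its log2 fold change was -0.71 (SE 0.145), a level of 0.611 of WT, in the authors' deposited table. The 95% interval was -1.10 to -0.46 in MPP and -0.99 to -0.43 in GMP. The authors' adjusted p, from DESeq2, was 0.00152 in MPP and 0.000151 in GMP. The tables hold no values per library, so whether the libraries of the 2 genotypes overlap, and whether 1 mouse carries the fall, was not analysed here. In sorted bulk cells fewer P2ry14-expressing cells and less P2ry14 RNA per cell cannot be told apart.

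**Figure D2:**
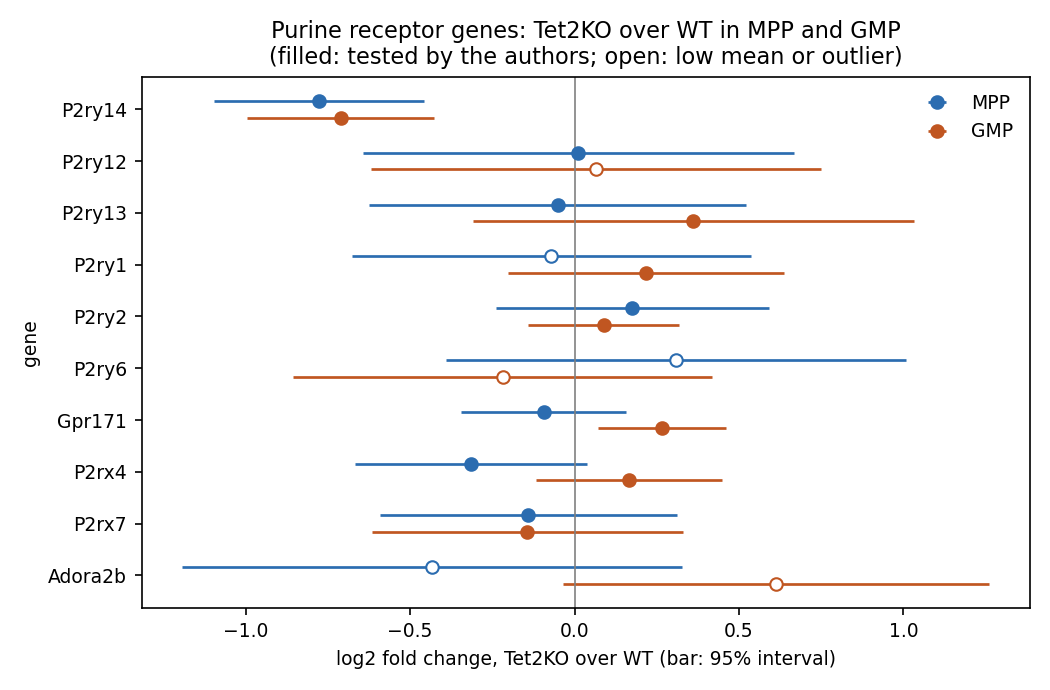
Log2 fold change of Tet2KO over WT (x axis) for each gene (y axis) in MPP (blue) and GMP (orange), with 95% intervals from the deposited standard errors; each comparison has 4 libraries against 4. Filled points were tested by the authors, and open points had a low mean or an outlier mark. P2ry14 lies at -0.78 and -0.71, with both intervals below 0.

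Of the 10 members, 7 were tested in MPP, and P2ry14 was the 1 called at an adjusted p under 0.05. Over all 11859 tested genes, 0.616% were called in MPP, 0.346% higher and 0.27% lower. In GMP 7 members were tested as well, and P2ry14 was again the 1 called, where 3.96% of 11503 tested genes were called, 1.75% higher and 2.22% lower. No member was called higher by DESeq2. At an unadjusted p under 0.05 the members higher were 0 in MPP and 1 in GMP, which was Gpr171. P2ry14 was selected on these contrasts, and nothing is read from the counts. The members not tested were P2ry6 and Adora2b in MPP and those 2 with P2ry12 in GMP, all with means under 10, and P2ry1 in MPP, which the authors marked as an outlier.

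The sorted cells carried the markers of their gates, and a few markers of other lineages moved with genotype. The gene for Sca1, Ly6a, had a level, as the deposited mean per kb of exon in ppm of the summed means, of 23.4 in MPP and 1.47 in GMP, and Fcgr3, which encodes CD16, had 1.18 and 27.4, while Kit had 89.7 and 65.1. The gate list held 8 genes, of which Cd34 and Flt3 belong to neither gate as given above. In each population 7 were tested, with 0 called by DESeq2. An unadjusted p under 0.05 was found for 1 in MPP, Cd34 (-0.13), and for 3 in GMP. These 3 were Fcgr3 (-0.32), Fcgr2b (-0.26) and Flt3 (0.26). The granule genes Mpo, Elane, Prtn3 and Ctsg, all 4, were marked as outliers in MPP, and in GMP 1 of 3 tested was called lower (Ctsg, -0.31). Megakaryocyte genes had 2 of 5 tested called higher in GMP (Pf4, 1.35, and Vwf, 1.01), and their summed share was 259 ppm in MPP and 88.0 ppm in GMP. Monocyte and macrophage genes had 0 of 3 called in MPP and 2 of 6 called higher in GMP (Csf1r, 0.56, and Cd68, 0.34), with a summed share of 61.3 and 125 ppm, and of its 9 genes with a row, 3 (C1qa, Fcgr1 and Ms4a7) had means under 10 in both tables. The macrophage genes C1qb, with means of 30.9 in MPP and 19.7 in GMP, and C1qc, with 18.5 and 13.7, were above that. Of the 6 monocyte and macrophage genes tested in GMP, 5 lay above 0 and 1, Cx3cr1, below it (-0.30). Cx3cr1 had 0.85 in MPP, and both of its values had an unadjusted p under 0.05. Mast cell and basophil genes had 0 of 3 called in MPP and 2 of 4 called lower in GMP (Cma1, -1.71, and Gata2, -0.37), with 182 and 516 ppm. Lymphoid genes had 0 of 2 called in each population, and 0 erythroid genes were tested. Late neutrophil genes had 0 of 1 called in MPP and 1 of 2 called higher in GMP (Mmp8, 1.36). The other one tested in GMP, S100a8, had -0.42. Of these other lineages' lists, those with 0 calls held 1 monocyte gene in MPP and 1 lymphoid gene in GMP at an unadjusted p under 0.05. The values named here are log2 fold changes in the authors' deposited tables. Their part in the decrease of P2ry14 was not tested, and levels per group are not in these tables.

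No difference in the decrease of P2ry14 between the populations was detected. The MPP value minus the GMP value was -0.07 (SE 0.218), with a 95% interval from -0.49 to 0.36 computed as if the tables shared no mice. Of 17660 genes for which both tables give a p, 8 (0.0453%) had a difference at an adjusted p under 0.05 by the normal test of the difference. Of the 9 members in that test 0 were called, and 3 had an unadjusted p under 0.05. These 3 were Gpr171 (-0.36, interval -0.68 to -0.04), P2rx4 (-0.48, interval -0.93 to -0.03) and Adora2b (-1.05, interval -2.05 to -0.05), each with the lower value in MPP. In total 7 genes were called lower in both tables, which is 21.9% of the 32 lower in MPP and 2.75% of the 255 lower in GMP. Besides P2ry14 these were Chdh, Cnn3, Etv5, Gfi1, Ncf1 and Skp1a, named after their values were seen. Over all tested genes 0.27% were called lower in MPP and 2.22% in GMP. Both tables share 3 mice of each genotype, so the overlap is not read as a result.

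The 3 other members inside Med12l were not called in any population where they were tested. Gpr171, a receptor of the same branch that was first described as an orphan, had a log2 fold change of -0.09 (SE 0.129 and adjusted p = 0.885) in MPP in the authors' deposited table. In GMP its value was 0.27 (SE 0.0989 and adjusted p = 0.104) in the authors' deposited table, opposite in sign to that of P2ry14. P2ry13, an ADP receptor, had -0.05 (SE 0.292) in MPP and 0.36 (SE 0.342) in GMP in the authors' deposited tables, with intervals that reach from -0.62 to 0.52 and from -0.31 to 1.03. P2ry12, the ADP receptor of platelets that clopidogrel blocks, had 0.01 (SE 0.334) in MPP and 0.06 (SE 0.349) in GMP in the authors' deposited tables. The P2ry12 interval in MPP, from -0.64 to 0.67, overlaps that of P2ry14, and no test between the genes was run.

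The host gene rose in GMP. Med12l had a mean of 759 normalized counts in MPP and 301 in GMP, and in MPP the change was 0.29 (SE 0.165 and adjusted p = 0.570) in the authors' deposited table. In GMP it rose by 1.01 (SE 0.136 and adjusted p = 2.57e-10) in the authors' deposited table, a level of 2.01 times that in WT, with an interval from 0.74 to 1.28. The difference between populations was -0.72 (SE 0.214), with an adjusted p of 0.365 by the normal test of the difference, and of 0.00129 where a correlation of 0.5 between the errors of both tables was assumed. Within 500 kb of P2ry14 the annotation has 28 genes, of which 11 had a row, and 8 were tested in MPP and 6 in GMP. P2ry14 was the 1 called in MPP, and P2ry14 and Med12l were the 2 called in GMP. Igsf10 had 0.48 (SE 0.203 and adjusted p = 0.377) in MPP and -0.02 (SE 0.275) in GMP in the authors' deposited tables. Whether the counting used the strand of the reads is not given in the sources used here, and without strand the reads of a receptor gene cannot be told apart from those of the Med12l intron that holds it.

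**Figure D3:**
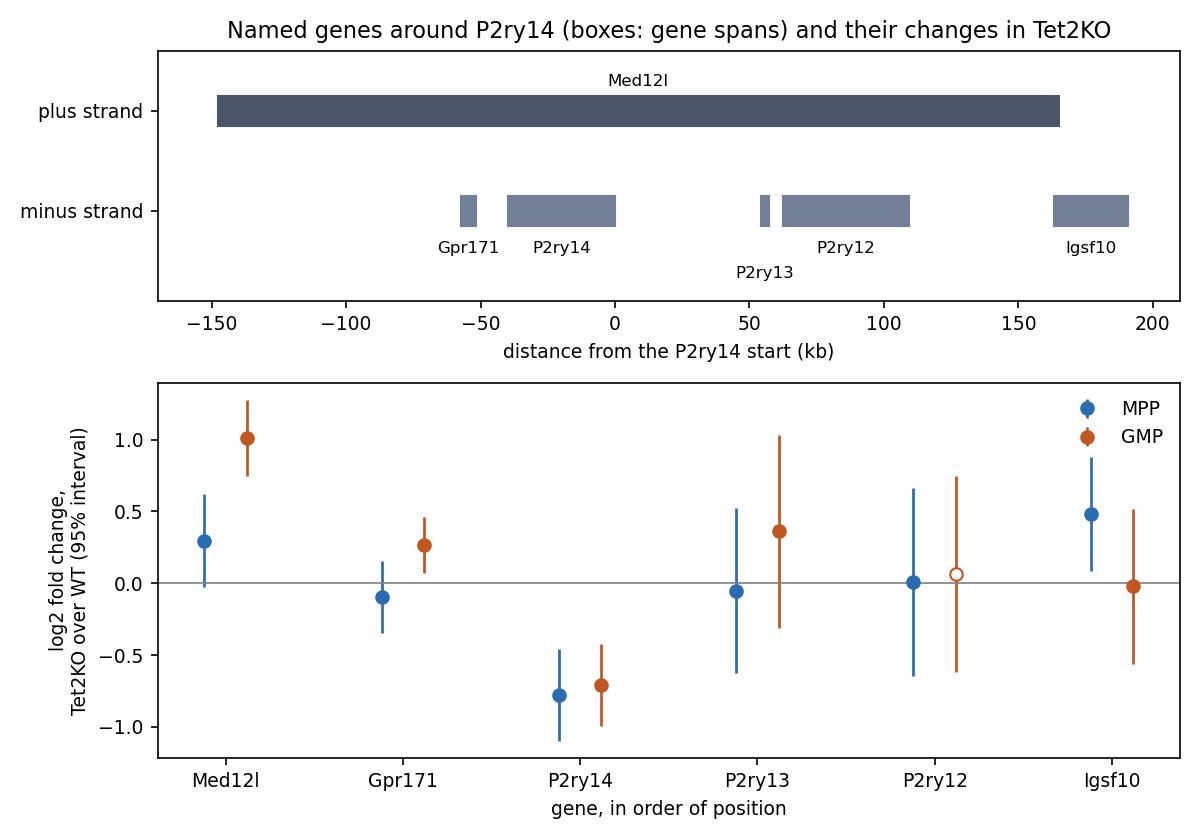
Upper panel: spans of Med12l and Igsf10 and of the 4 members inside Med12l, by distance in kb from the P2ry14 start (x axis) and by strand (y axis). Lower panel: change between genotypes on the log2 scale, with 95% intervals, for the same genes in MPP (blue) and GMP (orange), open points not tested; P2ry14 lies below 0 in both populations and Med12l at 1.01 in GMP.

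The remaining receptors for ADP, ATP, UTP and UDP were not called where they were tested. P2ry1, which acts with P2ry12 in the platelet response to ADP and couples to Gq, had 0.22 (SE 0.214 and adjusted p = 0.686) in GMP in the authors' deposited table. In MPP its value was -0.07 (SE 0.310), without a p because of the outlier mark, which 3.50% of MPP genes that were not low carried. For P2ry2, the receptor for ATP and UTP, the values were 0.18 (SE 0.212) in MPP and 0.09 (SE 0.117) in GMP in the authors' deposited tables. Its GMP interval, from -0.14 to 0.32, holds no decrease of the size seen for P2ry14. P2ry6, the UDP receptor, had means of 5.89 and 2.17 normalized counts in MPP and GMP, too low to be tested, and values of 0.31 (SE 0.357) and -0.22 (SE 0.325) in the authors' deposited tables.

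The 2 ATP-gated channels and the adenosine receptor were not called either. P2rx4 had -0.31 (SE 0.180 and adjusted p = 0.581) in MPP and 0.17 (SE 0.144 and adjusted p = 0.629) in GMP in the authors' deposited tables, on opposite sides of 0. P2rx7, the channel that drives inflammasome activation at high ATP, had -0.14 in both, with an SE of 0.230 in MPP and 0.241 in GMP, in the authors' deposited tables. Its SE was above the median of the 200 tested genes nearest in mean, which was 0.173 in GMP and 0.218 in MPP. Adora2b, the low-affinity adenosine receptor, had -0.43 (SE 0.388) at a mean of 9.37 normalized counts in MPP and 0.61 (SE 0.331) at 3.48 in GMP in the authors' deposited tables. The largest SE in the tables was 0.388 in MPP and 0.359 in GMP, also for genes with few counts. SEs were small even at very low means, such as 0.125 for Clrn1 at a mean of 0.271 normalized counts in GMP. Small SEs at so few counts are what fold changes shrunken towards 0 give, though the sources used here do not state shrinkage. The fold changes of the weakly expressed members, and the intervals around them, thus probably understate a change.

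By level, Gpr171 stood far above the other members in both populations. Levels are the deposited mean per kb of annotated exon, in ppm of the sum of all means in that table, and cover both genotypes. In MPP the level was 109 for Gpr171, above 98.4% of tested genes, then 4.71 for P2ry2, 3.96 for P2rx4 and 3.73 for P2ry14. P2ry13 (2.33), P2ry1 (2.17) and P2rx7 (1.96) followed, and P2ry12 (0.730), Adora2b (0.538) and P2ry6 (0.216) had the lowest levels in MPP. In GMP the level was 38.1 for Gpr171, 4.34 for P2ry2, 3.77 for P2rx4, 2.59 for P2ry1, 1.66 for P2rx7 and 1.29 for P2ry14. P2ry13 (0.449), Adora2b (0.171), P2ry12 (0.134) and P2ry6 (0.0681) came last in GMP. The tables give no spread of the means over libraries, so neighbours in these orders cannot be separated. The length chosen also moved the levels. With the longest transcript, that of P2rx4 was 7.15 in MPP and 6.81 in GMP, above that of P2ry2 with 6.15 and 5.66, so that these genes change places. P2ry14, with 11.1 kb of annotated exon in all, then had 5.29 in MPP and 1.82 in GMP, and P2ry1 (2.40) and P2rx7 (2.38) passed P2ry13 (2.33) in MPP.

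**Figure D4:**
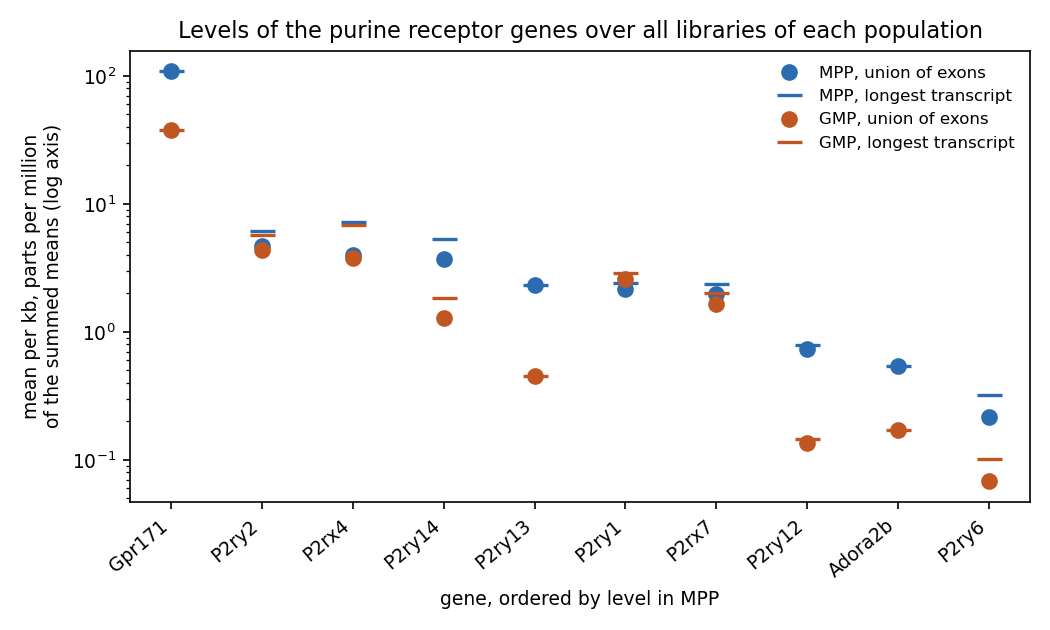
Level of each gene (y axis, log scale, deposited mean per kb in ppm of the summed means) in MPP (blue) and GMP (orange), with genes on the x axis ordered by their level in MPP. Points use the union of annotated exons and dashes the longest transcript; Gpr171 lies at 109 and 38.1, and the chromosome 3 cluster genes P2ry14, P2ry13 and P2ry12 are lower in GMP than in MPP.

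The 4 cluster members had higher shares of the summed means in MPP than in GMP. The tables were treated as normalized separately, so the ratios are a description with no test. The share in MPP over that in GMP was 2.90 for P2ry14, 2.85 for Gpr171, 5.19 for P2ry13 and 2.95 for the host Med12l. Over the 11618 genes whose mean reached 10 in each table the median ratio was 1.11, and 95% of genes lay below 2.56. P2ry12 had 5.44, with a GMP mean under 10, and Igsf10 had 7.01. Siah2, the next tested gene on the other side, had 0.910. Away from the cluster the ratio was 0.839 for P2ry1, 1.05 for P2rx4, 1.09 for P2ry2 and 1.18 for P2rx7. P2ry6 and Adora2b had 3.18 and 3.15, at means under 10 in both tables.

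Other genes of purine signalling were taken from 6 lists, whose median changes are read beside those of all tested genes, -0.00376 in MPP and 0.000251 in GMP. The list of enzymes and transporters that degrade nucleotides or handle adenosine also held the peptidase Dpp4. Of its genes, 2 of 12 tested were called higher in MPP and 0 lower, with 7 at an unadjusted p under 0.05 and a median of -0.02. In GMP 1 of 13 was called higher and 1 lower, with 7 at an unadjusted p under 0.05 and a median of 0.02. Over all tested genes 0.616% were called in MPP and 3.96% in GMP, which is the background for the called genes of all 6 lists. It is no background for the counts at an unadjusted p under 0.05. The share of all tested genes at that threshold was not computed, so nothing is read from those counts. Nt5e encodes CD73, which forms adenosine from AMP, and rose by 1.37 (SE 0.333 and adjusted p = 0.0120) in MPP in the authors' deposited table, at a mean of 22.5 normalized counts. In GMP its value was 0.87 (SE 0.299 and adjusted p = 0.0709) in the authors' deposited table. Dpp4, a surface peptidase that binds adenosine deaminase in humans, rose by 0.52 (SE 0.144 and adjusted p = 0.0499) in MPP and by 0.53 (SE 0.101 and adjusted p = 3.44e-05) in GMP in the authors' deposited tables. Entpd5, a UDP-hydrolysing enzyme of the endoplasmic reticulum, fell by 0.43 (SE 0.0910 and adjusted p = 0.000260) in GMP and had -0.26 (adjusted p = 0.347) in MPP in the authors' deposited tables. Ada, adenosine deaminase, had -0.37 (adjusted p = 0.230) and Enpp1 had -0.59 (adjusted p = 0.251) in MPP, and Adk, adenosine kinase, had -0.33 (adjusted p = 0.0507) in GMP, in the authors' deposited tables.

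Adenosine receptors outside the 10 showed 1 call. Of the other purine receptors 5 were tested in MPP, with 0 called, a median of 0.16 and 1 at an unadjusted p under 0.05 (P2rx1, 0.42), and 6 in GMP, with 1 called higher, 2 at an unadjusted p under 0.05 and a median of 0.19. That gene was Adora2a, the adenosine receptor that raises cyclic AMP in leukocytes, which rose by 0.63 (SE 0.202 and adjusted p = 0.0470) in GMP, against 0.16 in MPP, in the authors' deposited tables. Adora3 had 0.82 (SE 0.290 and adjusted p = 0.0826) in GMP in the authors' deposited table.

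Genes that make UDP-glucose and pass on the receptor signal were mostly not called. Of the 15 UDP-sugar genes, all tested, 0 were called in MPP, with 0 at an unadjusted p under 0.05 and a median of -0.07. In GMP 1 was called lower, with 2 at an unadjusted p under 0.05 and a median of -0.03. This was Ugp2, the enzyme that forms UDP-glucose, the ligand of P2Y14, which fell by 0.33 (SE 0.0952 and adjusted p = 0.0220), against -0.18 in MPP, in the authors' deposited tables. Among G protein alpha subunits 10 were tested, and 0 were called in MPP, with 0 at an unadjusted p under 0.05 and a median of -0.06, which GMP shared. Of the 2 at an unadjusted p under 0.05 in GMP, Gnai3, an inhibitory subunit of the kind to which P2Y14 couples, was the 1 called and fell by 0.43 (SE 0.0518 and adjusted p = 3.91e-13) in the authors' deposited table. Its value in MPP was -0.07, and Gnai2, the other abundant inhibitory subunit, had -0.11 in MPP and 0.09 in GMP in the authors' deposited tables. Nucleotide release genes had 0 calls among 7 tested in MPP and 6 in GMP, where 0 and 2 had an unadjusted p under 0.05, with a median of 0.06 in both. The 2 in GMP included Lrrc8a, a subunit of volume-regulated anion channels, with 0.27 (adjusted p = 0.177) in the authors' deposited table. Of 4 tested genes of the P2X7 inflammasome pathway 0 were called in MPP, with 0 at an unadjusted p under 0.05, and a median of 0.08. In GMP, with a median of 0.07, Il18 was the 1 at either threshold and rose by 1.19 (SE 0.354 and adjusted p = 0.0281) at a mean of 10.2 normalized counts in the authors' deposited table.

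**Figure D5:**
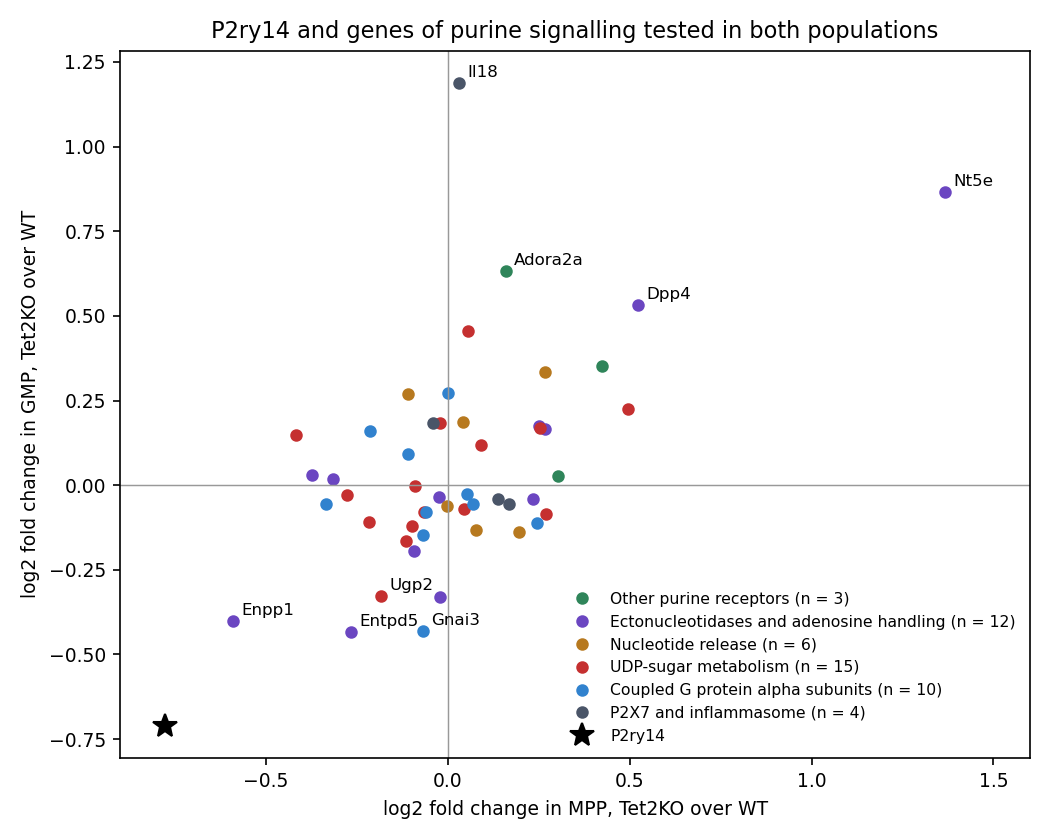
Log2 fold change of Tet2KO over WT in MPP (x axis) and GMP (y axis) for the listed purine signalling genes that were tested in both populations, coloured by list, with P2ry14 as a star at -0.78 and -0.71. Both axes rest partly on the same mice, so the scatter along the diagonal is not read as a result.

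The genes whose pair of changes lay nearest to that of P2ry14 were sought among 9102 genes that were tested in both tables and had means of 50 or more. Likeness was the Euclidean distance between the pairs of log2 fold changes, over 2 populations. The 5 nearest were Atp1b1 (distance 0.0704), Hist2h2bb (0.175), Hist2h2ab (0.177), Hoxa9 (0.230) and Hist1h3f (0.240). Atp1b1, a subunit of the sodium pump, had -0.76 (SE 0.331 and adjusted p = 0.404) in MPP and -0.78 (SE 0.239 and adjusted p = 0.0345) in GMP in the authors' deposited tables. None of the 5 was called in MPP, where their SEs ran from 0.188 to 0.331 against 0.163 for P2ry14. In GMP DESeq2 called Atp1b1, Hist2h2ab (adjusted p = 0.0325) and Hoxa9 (adjusted p = 0.0218) lower. Hist2h2bb (adjusted p = 0.0669) and Hist1h3f (adjusted p = 0.102) were not called there.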

How the data were processed

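RNA of 16 libraries, in 4 groups of 4, was measured from 2 ng of amplified total RNA by 75 bp single-end sequencing, per the labels' protocols. The submitters' processing notes name STAR, DESeq2 and the build mm10. Which counter and gene models were used is not given in the sources used here. Deposited tables hold, for each gene, a mean normalized signal over the libraries of a population, a log2 fold change with its SE, and the authors' p-value and adjusted p-value, all as made by the authors. No values per library are in them, so depth per library is unknown, and precision is given by the SE alone. The p-value matched the 2-sided normal p of the fold change over its SE within 0.00475 on the natural log scale, and the adjusted p matched the Benjamini-Hochberg value over tested genes within 2.4e-05. A gene was tested when its mean was at least 10 and it carried no outlier mark, and was called at an adjusted p under 0.05.

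There is 1 deposited table per population, and the tables were treated as normalized separately. Each library is 1 mouse, so p-values measure the spread between mice. Intervals (95%) and the test of the difference between populations were computed from the deposited values with a normal approximation. The test was adjusted over all genes with a p in both tables. The calls of the adjustment and of the test were tried on simulated data with normal errors, independent between populations. Such data cannot check the effect of shared mice or the normal approximation, and the intervals were not checked. Levels used exon lengths of the GENCODE annotation of mm10. The 10 members, the lists and the motifs were chosen with earlier results of these data known. List genes named are those called in either table and up to 2 more per population by the fold change over its SE; genes outside that rule are said to be so or serve as context. Results for some genes, among them the megakaryocyte list in MPP, are not reported here. Python 3.11.15, scipy 1.17.1, matplotlib 3.10.9, pandas 2.3.3 and numpy 2.4.6 were used.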

Additional observations from a re-analysis of the deposited data

How the results depend on the processing

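P2ry14 was the 1 member called in each population under all 6 alternatives to the main setting. It was selected on its decrease in these same comparisons, so this is no independent check of that decrease. Thresholds of 0.1 and 0.01 leave its adjusted p unchanged and could not remove it. Its adjusted p was 0.00144 to 0.0322 in MPP and 0.000138 to 0.0459 in GMP, highest in both with an empirical null, in which the statistics are divided by their own spread. Counts over all genes moved more. With an adjusted p under 0.01 there were 36 calls in MPP and 198 in GMP, with one under 0.1 there were 768 in GMP, and with the empirical null 18 in MPP and 72 in GMP. A correlation of 0.5 between the errors of both tables raised the genes that differ between populations from 8 to 166, still with 0 members, and Med12l was then among them; the main setting takes errors as independent although mice are shared. Recentring on the median moved no member's log2 fold change by more than its SE, since the medians removed were only -0.00376 in MPP and 0.000251 in GMP. Levels with the longest transcript in place of all exons moved by over 10% in 12 of 20 cases. P2rx4 moved most (7.15 in MPP and 6.81 in GMP, against 3.96 and 3.77). Without Rn45s 0 of 20 moved so far. Leaving out Rn45s rescales all levels of a population by the same factor, as from 38.1 to 41.8 for Gpr171 in GMP. These are thus not 20 separate cases. CpG content before the start alone moved no window's percentile by 10 points or more. No paired analysis was possible because the tables hold no values per library, and leaving out single mice could not be done for the same reason. Weakly expressed members (P2ry6, P2ry12 and Adora2b) limit what can be said of small changes.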
